A study of Mus musculus with 6 samples.

Results

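Genes of 4 enzyme families that make drugs, hormones and metabolites water-soluble or cleave their ester bonds were examined in mouse liver after injection of a lentiviral vector. The members were all rows of the deposited table whose gene symbol starts with Gst followed by a, k, m, o, p, t or z and a digit, or with Ugt, Sult or Ces followed by a digit. This naming rule uses no measured value. It selected 39 of 8390 genes: 16 Gst, 14 Ugt, 4 Sult and 5 Ces. All 39 were among the 8386 genes tested. Members of these families that the table does not list, such as Gsta1, Gsta2, Sult1e1 and Sult3a1, were not analysed here.

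Livers came from 6 C57BL/6 mice, an inbred laboratory strain, and RNA of the whole liver was sequenced. In the LV group, 3 mice received 3e8 transducing units of a lentiviral vector into a vein, and the liver was removed 4 h later. The untreated group comprised the other 3 mice. No mock-injected animals are among the samples, so the vector and the injection cannot be told apart. Sex, age and the origin of the replicates are not given in the labels, and p-values thus reflect only how these 6 samples vary. Values are whole numbers in a unit that no label or header names; from the values they appear to be scaled to library size and transcript length and then rounded. Read depth is unknown.

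Conjugation is the second stage of detoxification in liver. Glutathione S-transferases (Gst) join glutathione to reactive molecules, UDP-glucuronosyltransferases (Ugt) attach glucuronic acid to bilirubin, steroids and drugs, and sulfotransferases (Sult) transfer sulfate from the donor PAPS. Carboxylesterases (Ces) hydrolyse esters, including drugs and lipids, in the endoplasmic reticulum. Hepatocytes express all 4 families at high level, and in rodents several members differ between the sexes through the pattern of growth hormone secretion.

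Promoters of 33 members were found in RefSeq sequences of assembly GRCm38.p6 by gene symbol. Ces2, Ces3, Gsta4, Gstt2, Ugt1a6b and Ugt3a2 were not among them and were not searched. Within the 250 bases before the start, on either strand, 2 motifs were searched. The core of the antioxidant response element, TGACNNNGC, through which many conjugating enzymes are induced, occurred in 2 of the 33 promoters, Gsta3 and Gstm5, and in 10.1% of 27025 promoters. A STAT motif, TTCNNNGAA, the kind of site through which growth hormone acts in liver, occurred in 1 of 33, Ugt1a6a, and in 7.18% of all promoters. No match of one motif overlapped a match of the other. The promoters with a match are shown beside that of Gstp1, the Gst member that varied most between livers of the same group. The 130 bases before the start are printed 5′ to 3′ on the gene's strand, with the matches in capitals.
Gsta3, chr1:21240455-21240584, plus strand: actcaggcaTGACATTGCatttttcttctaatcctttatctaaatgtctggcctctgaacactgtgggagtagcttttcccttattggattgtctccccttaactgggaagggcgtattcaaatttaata
Gstm5, chr3:107895724-107895853, plus strand: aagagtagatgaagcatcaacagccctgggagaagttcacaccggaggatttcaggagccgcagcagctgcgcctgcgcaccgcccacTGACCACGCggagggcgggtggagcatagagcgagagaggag
Ugt1a6a, chr1:88134679-88134808, plus strand: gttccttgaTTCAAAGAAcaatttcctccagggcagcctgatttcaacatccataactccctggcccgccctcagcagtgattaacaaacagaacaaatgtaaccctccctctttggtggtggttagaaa
Gstp1, chr19:4037913-4038042, minus strand: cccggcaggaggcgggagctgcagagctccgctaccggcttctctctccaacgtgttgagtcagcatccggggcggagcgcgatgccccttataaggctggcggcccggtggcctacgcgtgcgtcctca
Gstp1 held no exact match to either motif in its searched window. Sites that differ from these letters were not searched, so a variant of either element can be present. A match is a description of the letters, and binding was not measured.

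Before the families are compared, 2 livers need to be set apart. LV replicate 3 and untreated replicate 2 carried high values of genes that are male-biased in mouse liver: of 13 measured genes of a male-biased list, 11 were higher in these 2 livers than in each of the other 4, and the summed values of the list were 5937 and 5669 there against 584 to 1595 elsewhere. Of 13 measured female-biased genes, 8 were lower in these 2 livers than in each of the others. Many conjugating enzymes followed the same division, so the plot of fold changes shows each member with and without these livers, and values without them stand beside the main results. A fit without them holds 2 livers per group. The pair was set apart on values of these same data. A smaller error without it is thus partly built in for members that follow the division, and is no gain in precision. Among cell markers, all 11 listed hepatocyte genes were measured, and 6 of them had a positive fold change (median 0.019), with 1 lower and 1 higher at an unadjusted p under 0.05. Their sums, 73348 to 85660 in LV and 79824 to 103394 in untreated livers, are mostly albumin, with Alb at 54529, 54467 and 41700 against 66000, 49014 and 69728. Summed Kupffer cell markers (10 of 11 measured) ranged from 135 to 315 in LV and from 248 to 368 in untreated livers, with 1 lower and 0 higher at that p (median fold change -0.57). Endothelial (9 of 9 measured) and stellate cell markers (9 of 9) ranged from 94 to 163 and from 95 to 133 in LV livers and from 167 to 191 and from 108 to 149 in untreated livers. At an unadjusted p under 0.05, 0 endothelial markers were lower and 1 higher (median -0.45), and 2 stellate markers were lower and 0 higher (median 0.13). After adjustment in limma 0 markers of these 4 cell types passed. Among cholangiocyte markers 1 of 6 was measured, among neutrophil markers 0 of 8 and among lymphocyte markers 0 of 10. The part of these cell types in the results was not tested, and in whole tissue fewer cells of a type and less RNA per cell cannot be told apart.

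**Figure D1:**
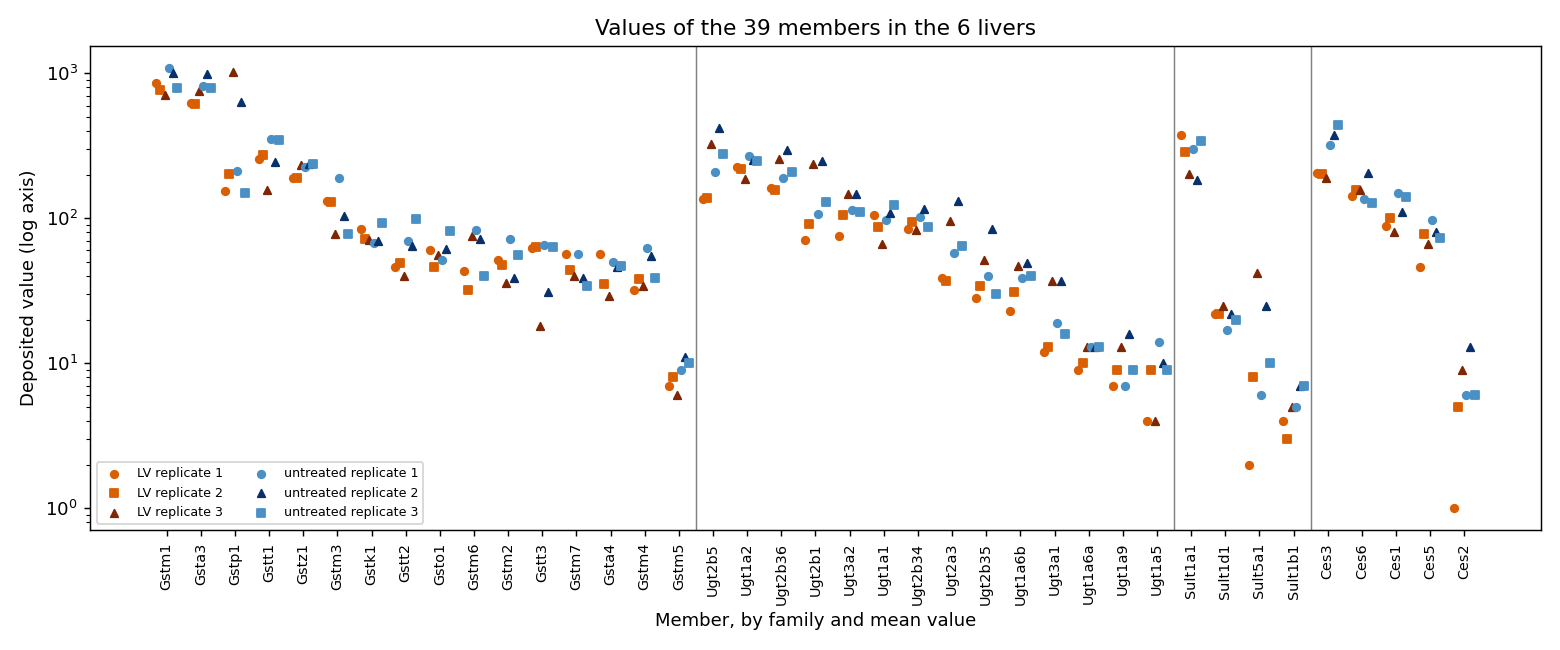
Deposited value (log axis) of each member in the 6 livers; every point is 1 liver, orange and brown for LV, blue for untreated, and triangles mark LV replicate 3 and untreated replicate 2. Ces3 has all LV values below all untreated values, and Gstp1 has its highest values, 1023 and 632, in the livers marked by triangles.

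Across the 4 families most members had lower mean log values in LV livers, but a single member passed the test. Of the 39 members, 35 (89.7%) had a negative log2 fold change, the LV mean of log2(value + 1) minus the untreated mean, against 58.1% of all tested genes. After Benjamini-Hochberg adjustment in limma (threshold 0.05), 1 member was lower, Ces3, and 0 were higher. The background was 0.87% of all genes called lower and 3.76% called higher. At an unadjusted p under 0.05, 9 members (23.1%) were lower and 0 higher, against 10.3% and 9.21% of all genes. All LV values lay below all untreated values in 7 members (17.9%) and in 11.0% of all genes; the reverse held for 0 members and 8.65% of all genes.

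The families differed in their medians, though no test of these differences was made. The median log2 fold change was -0.56 in Ces, -0.32 in Ugt, -0.28 in Gst and -0.096 in Sult, beside -0.068 over all tested genes. The order of the families rested on single libraries: without LV replicate 1 the medians were -0.20 in Ces, -0.18 in Ugt, -0.35 in Gst and 0.054 in Sult. The Ugt median was -0.54 without LV replicate 3 and -0.17 without untreated replicate 2. Without LV replicate 3 and untreated replicate 2 the medians were -0.61, -0.38, -0.30 and -0.30, beside -0.013 over all genes. With those livers left out, 12 of 39 members were lower at an unadjusted p under 0.05, where 10.3% of all genes were, and 0 passed after adjustment, where 1.65% of all genes were called lower and 3.74% higher. Of these 12, 6 were Ugt, 4 Gst and 2 Ces members. Each family also showed its own spread among livers. Relative to the untreated mean, the Gst median was -0.21, -0.31 and -0.50 in LV replicates 1, 2 and 3, all below the untreated medians of 0.13, -0.057 and -0.0075. Ces medians, at -0.83, -0.40 and -0.32, also lay below the untreated ones of -0.16, -0.0033 and -0.18. For Ugt the values overlapped: -0.71, -0.39 and 0.16 in LV livers against -0.19, 0.32 and -0.15.

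**Figure D2:**
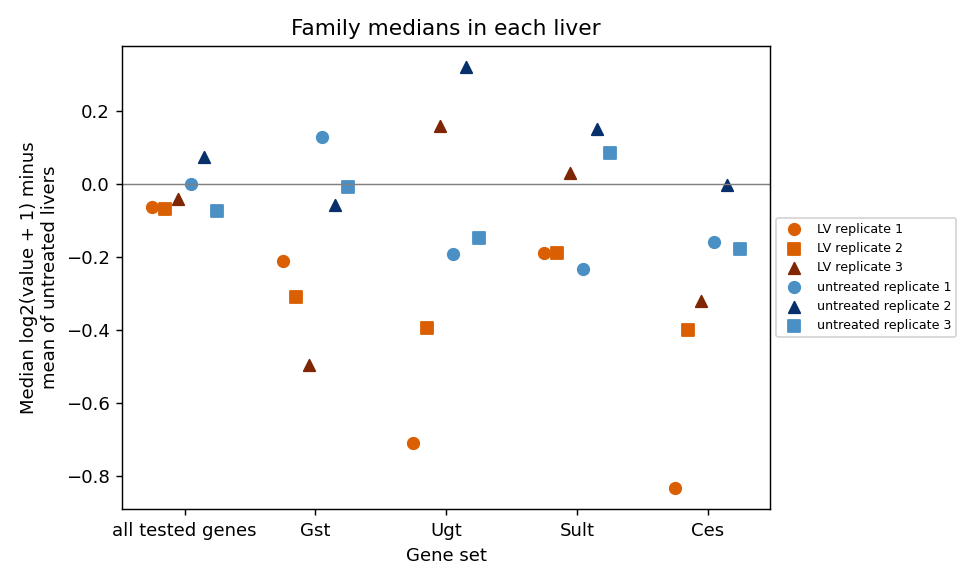
Median over the members of each family of log2(value + 1) minus the mean of the untreated livers (y axis), per liver; the leftmost set holds all tested genes. LV points lie below untreated points for Gst and Ces, while for Ugt both triangles, LV replicate 3 and untreated replicate 2, lie above 0.

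Carboxylesterases held the called member. Ces3 had 206, 202 and 190 in the LV livers and 323, 377 and 443 in the untreated ones. The groups did not overlap, and the mean was 47.7% lower after the vector, at 199 ± 8.33 against 381 ± 60.1 (SD, n = 3). The log2 fold change was -0.92 ± 0.13 (SE; limma adjusted p = 0.0234). This call was lost, with an unchanged direction, when any library other than untreated replicate 1 was left out (adjusted p 0.0506 to 0.117), and without both LV replicate 3 and untreated replicate 2 (-0.89, adjusted p = 0.166). RefSeq lists Ces3 as an older symbol of both Ces1d, a triacylglycerol hydrolase, and Ces3a, so the symbol does not settle which gene the row measures.

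The other Ces members gave no call. Ces1, an older symbol of Ces1g, had 89, 100 and 80 after the vector and 149, 111 and 140 without it, again without overlap (log2 fold change -0.56 ± 0.15, limma adjusted p = 0.117; -0.61 ± 0.090, adjusted p = 0.0990 without LV replicate 3 and untreated replicate 2). Ces5 (now Ces2e) was at 46, 78 and 66 against 97, 80 and 73, with 1 LV liver inside the untreated range. Ces6, today Ces2a, was level in most livers at 143, 156 and 157 against 137, 206 and 127; its highest value was in untreated replicate 2. Its fold change, -0.011 with all livers, was 0.18 without LV replicate 3 and untreated replicate 2, and also above 0 under quantile normalization and median-of-ratios scaling. Ces2 was the lowest of the family, at 1, 5 and 9 against 6, 13 and 6, values at which rounding matters. Summed over the 5 genes, Ces values were 485, 541 and 502 in the LV livers and 712, 787 and 789 in the untreated ones (509 ± 28.7 against 763 ± 43.9, SD, n = 3), a description with no test. Most of that difference lay in Ces3, with means of 199 in LV and 381 in untreated livers, while those of Ces6 were 152 and 157. RefSeq also places the rows listed as Es1 (Ces1c) and Es22 (Ces1e) in this family; they fall outside the naming rule. Es1, a secreted esterase of plasma, had 1520, 1246 and 1038 against 1418, 873 and 1063, and Es22 had 45, 45 and 69 against 66, 102 and 62. Both overlapped between the groups.

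**Figure D3:**
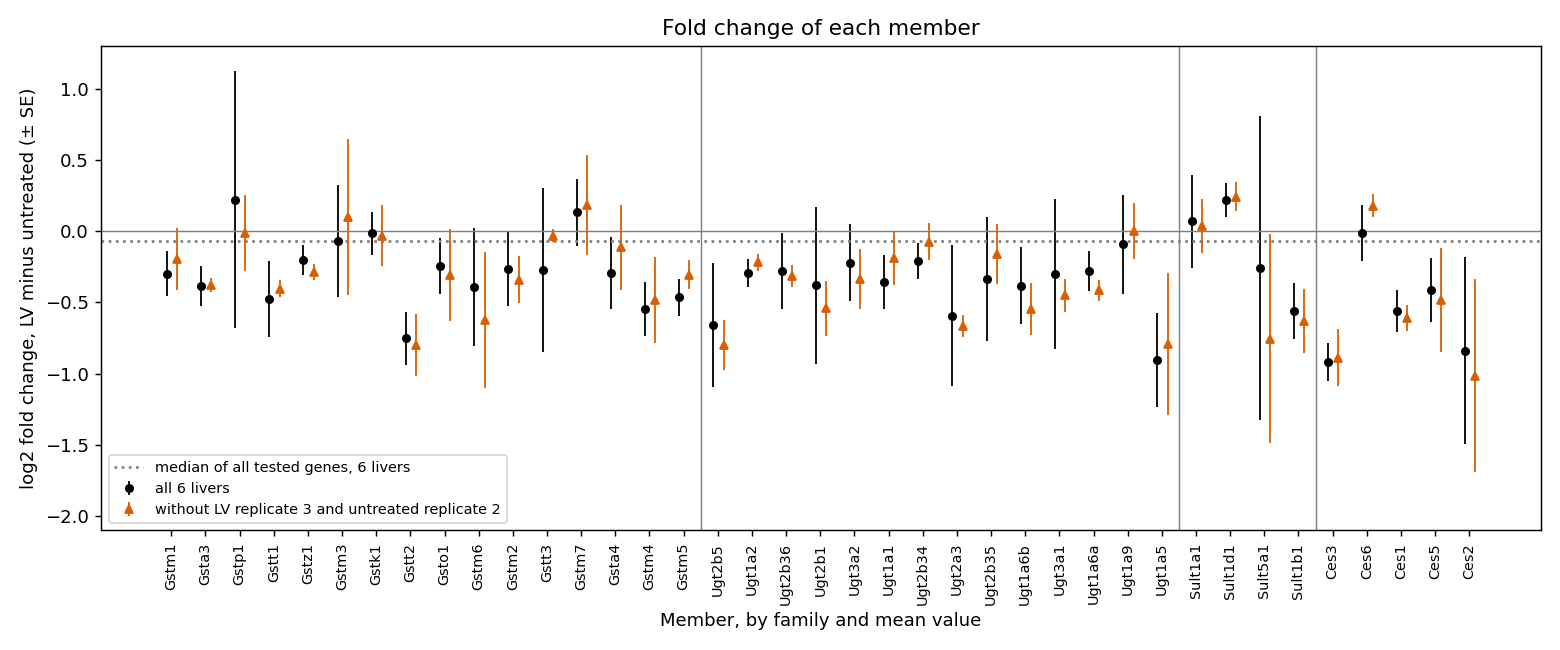
Log2 fold change of each member (LV minus untreated, ± SE from limma), with all 6 livers (black circles) and without LV replicate 3 and untreated replicate 2 (orange triangles); the dotted line is the median of all tested genes, -0.068. Most points lie below 0, and error bars of Gstp1, Sult5a1, Ugt2a3 and Ugt2b1 are shorter when the 2 livers are left out. In these genes the 2 livers hold the highest values, so leaving the livers out shortens the bars.

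Glutathione S-transferases gave no call. All LV values lay below all untreated values in 4 of 16 Gst members (25.0%), against 11.0% of all tested genes. By class, the 7 mu-class genes (Gstm) had a median log2 fold change of -0.30, the 3 theta genes (Gstt) -0.48 and the 2 alpha genes (Gsta) -0.34. Gstm1 and Gsta3 had the highest levels of the family on the length-scaled values. Gstm1 was at 863, 763 and 708 after the vector and 1091, 1005 and 791 without it, with a slight overlap (log2 fold change -0.30 ± 0.16, limma adjusted p = 0.357; -0.19 without LV replicate 3 and untreated replicate 2). Gsta3, an alpha-class enzyme that acts on aflatoxin epoxide in mice, had 621, 618 and 753 against 822, 990 and 790. Its groups did not overlap (-0.38 ± 0.14, adjusted p = 0.217; -0.38 ± 0.050, adjusted p = 0.0833 without LV replicate 3 and untreated replicate 2). Among genes of the theta class, which act on small halogenated molecules, Gstt2 had the smallest p of the family: 46, 49 and 40 against 70, 64 and 99 (-0.75 ± 0.19, adjusted p = 0.102; -0.80 ± 0.22, adjusted p = 0.205 without the same livers). The mu-class genes Gstm4 (32, 38 and 34 against 62, 55 and 39) and Gstm5 (7, 8 and 6 against 9, 11 and 10) were likewise separated between groups, with limma adjusted p = 0.196 and 0.134 (0.464 and 0.240 without the same livers). Gstm6 crossed the group border, with 43, 32 and 76 against 83, 72 and 40. Gstm7 was the mu-class gene with a positive fold change (0.13 ± 0.23), and Gstk1, a mitochondrial and peroxisomal enzyme, was at -0.015 ± 0.15. Gstz1, which takes part in tyrosine breakdown, Gsto1, Gsta4 and Gstm3 overlapped between the groups, with fold changes of -0.20, -0.25, -0.29 and -0.070.

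Gstp1, the pi-class enzyme, varied most within the groups of the Gst family. It had 155, 201 and 1023 in LV replicates 1, 2 and 3 and 212, 632 and 150 in untreated replicates 1, 2 and 3. LV replicate 3 was 5.75-fold above the mean of the other LV livers, and untreated replicate 2 was 3.49-fold above that of the other untreated livers. The fold change between groups was 0.22 ± 0.90 with all livers and -0.015 ± 0.27 without these 2. Gstt3 showed the opposite division, at 62, 63 and 18 against 65, 31 and 63. Gstt1 and Gstm2 were also lowest in LV replicate 3 and untreated replicate 2. The estimate of Gstt1 was -0.48 ± 0.27 with all livers and -0.41 ± 0.059 without those livers (limma adjusted p = 0.375 and 0.0961). The livers left out hold its lowest values, so the smaller error follows from that choice. Of 50-base windows of the Gstp1 transcript, 62.3% also occur in Gstp2, so the split of reads between these paralogs is uncertain.

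Glucuronosyltransferases were the family whose values most often followed the 2 livers with high male-biased genes. In 9 of 14 Ugt members (64.3%), LV replicate 3 and untreated replicate 2 both exceeded the other 4 livers, as they did in 11.0% of all tested genes. The reverse was seen in 0 Ugt members and 5.74% of all genes. The 9 comprised 5 of 6 Ugt2 genes, both Ugt3a genes and 2 of 6 Ugt1a genes. Over the other families the high pattern was seen in 1 of 16 Gst, 1 of 4 Sult and 2 of 5 Ces members.

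**Figure D4:**
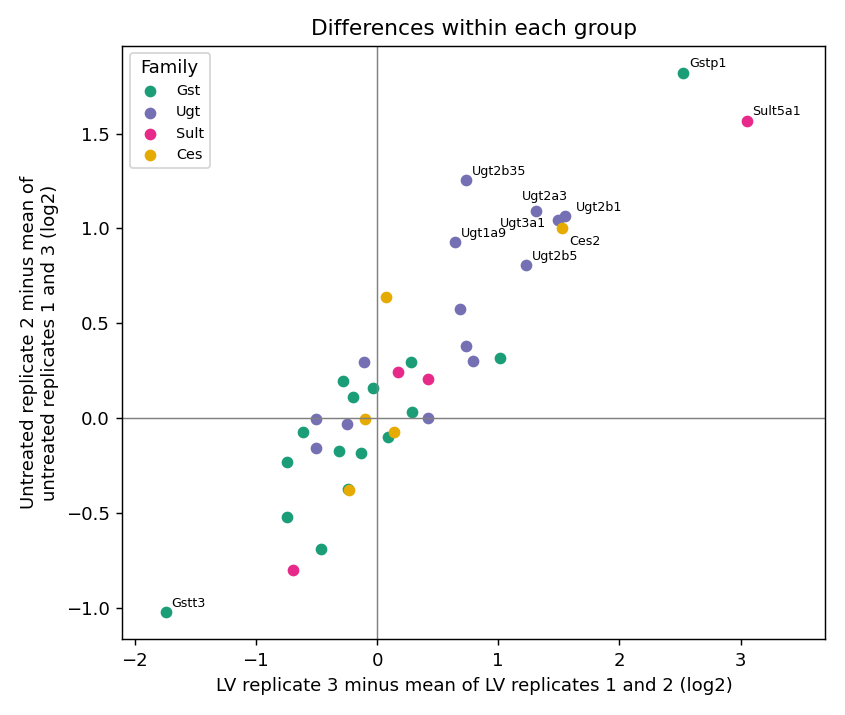
Difference in log2(value + 1) between LV replicate 3 and the mean of LV replicates 1 and 2 (x axis) and between untreated replicate 2 and the mean of untreated replicates 1 and 3 (y axis); each point is 1 member, coloured by family. Gstp1 and Sult5a1 lie farthest to the upper right with a group of Ugt genes, and Gstt3 lies at the lower left.

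Within that division most Ugt values were lower after the vector. Ugt2b1, which conjugates steroids, had 71, 91 and 238 in LV replicates 1, 2 and 3 and 107, 247 and 129 in untreated replicates 1, 2 and 3. Ugt2a3 had 39, 37 and 96 against 58, 131 and 64. In both genes LV replicates 1 and 2 were below every untreated liver, whereas LV replicate 3 exceeded untreated replicates 1 and 3. The log2 fold change of Ugt2b1 was -0.38 ± 0.55 with all livers and -0.54 ± 0.19 without LV replicate 3 and untreated replicate 2. For Ugt2a3 the log2 fold change was -0.59 ± 0.49 with all livers and -0.67 ± 0.079 without LV replicate 3 and untreated replicate 2 (limma adjusted p = 0.56 and 0.0717). Ugt2b5, the Ugt member with the highest mean on the length-scaled values, was at 136, 139 and 324 against 209, 421 and 276. Its log2 fold change was -0.66 ± 0.44 with all livers and -0.80 ± 0.18 without the 2 livers (limma adjusted p = 0.456 and 0.164). Ugt2b36 had 163, 157 and 258 against 190, 298 and 209. Ugt3a1, of a class that uses other sugars than glucuronic acid, had 12, 13 and 37 against 19, 37 and 16. With both of those livers left out, the fold changes of Ugt2b36 and Ugt3a1 were -0.32 and -0.45 (limma adjusted p = 0.181 and 0.195). Ugt2b35, Ugt3a2, Ugt1a6b and Ugt1a9 shared this pattern, with fold changes of -0.34, -0.22, -0.38 and -0.093. Ugt2b34 was the exception among the Ugt2 genes, at 84, 95 and 83 against 102, 116 and 87 (-0.21 ± 0.13). Comparing LV replicate 3 with untreated replicate 2 directly, all 6 Ugt2 genes, 5 of 6 Ugt1a genes and 0 of 2 Ugt3a genes were lower in the former. Over all tested genes 57.7% were. This sets 1 liver against 1 liver, and some pairs were equal or nearly so: Ugt2b1 had 238 and 247, Ugt3a1 37 and 37, and Ugt3a2 148 and 147. With a score of sex-biased genes as a covariate, chosen after seeing the data, 6 of 14 Ugt members were lower at an unadjusted p under 0.05 (14.1% of all genes), and 0 passed after adjustment (1.65% of all genes lower and 3.92% higher).

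The Ugt1a genes, spliced from alternative starts onto shared exons, spread less. Ugt1a2 had 225, 220 and 187 after the vector and 269, 254 and 250 in controls, which did not overlap (-0.29 ± 0.10, limma adjusted p = 0.194; -0.22 ± 0.063, adjusted p = 0.216 without LV replicate 3 and untreated replicate 2). Ugt1a1, the bilirubin-conjugating enzyme, was at 105, 87 and 67 against 97, 109 and 123 (-0.36 ± 0.19, adjusted p = 0.356; -0.19 without the same livers). Ugt1a5, at 4, 9 and 4 against 14, 10 and 9, and Ugt1a6a, at 9, 10 and 13 against 13 in each untreated liver, had low values. With all livers, the fold change of Ugt1a5 was the most negative of the Ugt members (-0.91 ± 0.33, limma adjusted p = 0.219). It was -0.79 ± 0.50 without LV replicate 3 and untreated replicate 2. Between 58.2% and 100% of the 50-base windows of the 6 Ugt1a transcripts also occur in another gene, and 41.7% of those of Ugt2b5. For Ugt2b5 they are mainly shared with Ugt2b38, which is no member (34.8%). The labels do not state how reads from such windows were assigned.

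Sulfotransferases gave no common direction. Sult1a1, which sulfates phenols, had 376, 287 and 203 after the vector and 300, 184 and 343 in controls; LV replicate 3 and untreated replicate 2 were its lowest. Sult5a1 ran the other way, with 2, 8 and 42 against 6, 25 and 10. Fold changes were 0.070 ± 0.33 and -0.26 ± 1.07, small beside the differences within groups. Sult1d1, which acts on catecholamines, stayed between 17 and 25 in all livers (0.22 ± 0.12, limma adjusted p = 0.367; 0.24 ± 0.10 without LV replicate 3 and untreated replicate 2). Sult1b1 was at 4, 3 and 5 against 5, 7 and 7 (-0.56 ± 0.20, adjusted p = 0.207; -0.63 ± 0.23 without the same livers).

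Genes that serve the same pathway were read from lists of other conjugation, cofactor supply, conjugate cleavage and export, other esterases and regulators. The other conjugation list is wider than its name and also holds enzymes that do not conjugate, such as Ephx1, Ephx2, Nqo1 and Nqo2. Of 19 measured genes of the other conjugation list, 1 was lower and 0 higher after adjustment, against 0.87% and 3.76% of all tested genes. At an unadjusted p under 0.05 in limma, 3 were lower and 0 higher, against 10.3% and 9.21% of all genes. Negative fold changes were found for 15 of the 19, against 58.1% of all genes. Inmt, an N-methyltransferase, fell from 1238, 987 and 1058 in untreated livers to 596, 640 and 629 in LV livers (-0.81 ± 0.11, limma adjusted p = 0.0224). This call was lost when any library other than untreated replicate 2 was left out (adjusted p 0.0526 to 0.105), and without both LV replicate 3 and untreated replicate 2 (-0.89, adjusted p = 0.0815). Ephx1, the microsomal epoxide hydrolase, had 136, 142 and 174 against 243, 237 and 212 without overlap (-0.62 ± 0.12, adjusted p = 0.060; 0.0332 without LV replicate 3 and 0.0893 without that liver and untreated replicate 2). Over all tested genes, 116 were called lower without LV replicate 3, against 73 with all livers. Leaving out any other single library gave 10 to 59. Those fits are not given for Ephx1, and no call is read from its value without LV replicate 3. The median fold change of the other conjugation list was -0.30.

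No gene of the other lists passed in limma with all 6 livers. Counts at an unadjusted p under 0.05 stand beside 10.3% of all genes lower, 9.21% higher and 58.1% with a negative fold change. Cofactor supply had 18 measured genes, 3 of them lower and 0 higher at an unadjusted p under 0.05, with a median of -0.0058 and 9 negative fold changes. Slc35b2, the Golgi transporter of the sulfate donor, had 15, 19 and 17 against 24, 22 and 27, and Ahcy, which breaks down S-adenosylhomocysteine, had 85, 88 and 94 against 106, 104 and 109. For cleavage and export, 10 genes were measured, all with negative fold changes, a median of -0.36 and 1 lower at an unadjusted p under 0.05, a share near the background. The gene was Gusb, the beta-glucuronidase, at 12, 13 and 12 against 16, 15 and 16. The phospholipid exporter Abcb4 was at 34, 40 and 54 against 53, 57 and 72. Of 15 other esterases, 1 was lower at an unadjusted p under 0.05 (median -0.12), also no more than the background share. That gene was Afmid, a formamidase, at 28, 21 and 29 against 38, 41 and 40; Mgll, monoglyceride lipase, had 17, 48 and 39 against 61, 48 and 95.

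Regulators of these enzymes (18 measured) gave 4 lower and 2 higher genes at an unadjusted p under 0.05, with a median of -0.070, beside the same background. Nr1i3, the receptor CAR that induces many conjugating enzymes, had 28, 67 and 76 after the vector and 126, 154 and 168 in controls (-1.48 ± 0.40, limma adjusted p = 0.122; -1.72 ± 0.56, adjusted p = 0.240 without LV replicate 3 and untreated replicate 2). Cebpa, a hepatocyte transcription factor, was at 135, 130 and 162 against 190, 200 and 206 (-0.48 ± 0.11, adjusted p = 0.0796; 0.0329 without LV replicate 3 and 0.0728 without that liver and untreated replicate 2). Neither pair of groups overlapped. The 2 higher genes, named after their values were seen, were Keap1, which holds the antioxidant regulator Nrf2 in check, and Hnf4a, a hepatocyte transcription factor. Keap1 was at 31, 32 and 24 against 22, 19 and 20 (0.48 ± 0.14, limma adjusted p = 0.134; 0.0468 without LV replicate 3 and 0.0791 without that liver and untreated replicate 2). Hnf4a was at 227, 218 and 216 against 189, 193 and 184 (0.22 ± 0.068, limma adjusted p = 0.160). Among fits with a single library left out, that without LV replicate 3 called the most genes, 116 lower and 317 higher. The others called 10 to 59 lower and 120 to 253 higher. Those other fits are not given for Cebpa and Keap1, and Hnf4a is given with all livers only. No call is thus read from the values of Cebpa and Keap1 without LV replicate 3.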

How the data were processed

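RNA from 6 livers (3 LV, 3 untreated) was sequenced after TruSeq library preparation, per the labels' protocols. The values the authors deposited are treated as a score, since they are whole numbers with nearly equal sums and low scatter. The submitters' processing notes name the build mm9; neither aligner nor counter is stated in the sources used here. Column sums were 497295 to 526009, and the variance over the mean of genes with a mean of 2 to 5 was 0.238 and 0.246 in untreated and LV livers. The first percentile of values was 6.56 where transcripts were shortest (lowest decile) and 1 where they were longest; 87.5% of symbols had a length. Depth is unknown, so no counting interval is given.

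Testing was limited to genes reaching 1 in 3 or more samples. The model, in limma 3.58.1 (R 4.3.3), had log2(value + 1) as response, the group as its term and an intensity trend. It used two-sided p and Benjamini-Hochberg adjustment over all tested genes. The fit was also run on simulated data with independent noise in each liver and log2 changes of 1 and 2 in either direction. It called 72% of the changes of -1 and 62% of those of 1. Smaller changes and the division of LV replicate 3 and untreated replicate 2 were not simulated. The members and lists were chosen with earlier results of these data known. Named members were those called and, per family, the 3 with the smallest p, the highest mean and the widest spread within groups; further members are given as examples chosen after seeing values. From each related list the 2 with the smallest p were named; sex-biased lists are given as sums. The table held 147 of 185 list entries. Of the 39 symbols, 34 were current in RefSeq (GRCm38.p6), 3 were older symbols of 1 gene and 2 of 2 genes. Shared windows come from GENCODE M21 transcripts. Alternatives were leaving out each library or both of the livers named above, a replicate block, another pseudocount, filter, scaling or variance trend, and a covariate added after seeing the data. A gene of the regulator list is not reported here.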

Additional observations from a re-analysis of the deposited data

How the results depend on the processing

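Of 375 refits of the 25 named members (15 alternatives each), 354 kept direction and side of the threshold, 7 lost a call and 14 changed sign. The lost calls were all of Ces3. Leaving out single libraries gave 120 to 317 genes called higher (315 with all) and 10 to 116 called lower (73 with all), 0 to 1 members called lower, and medians of -0.28 to 0.054 for Sult, -0.64 to -0.20 for Ces, -0.54 to -0.17 for Ugt and -0.35 to -0.21 for Gst. Without both LV replicate 3 and untreated replicate 2, 138 genes and 0 members were called lower, and the Sult median was -0.30. With the sex-biased score as covariate, 138 genes were called lower and Ces3 kept its call. The replicate block gave 145 genes called higher, 11 lower and 0 members. Deviations of same-numbered samples correlated at 0.28, -0.47 and -0.34, and those of LV replicate 3 and untreated replicate 2 at 0.61. The division of these 2 livers enters all of these values, so they cannot tell whether the numbers pair the samples.

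Signs changed only where fold changes were small beside their error. Ces6 ranged from -0.14 to 0.20 with single libraries left out, and was 0.18 without LV replicate 3 and untreated replicate 2, 0.034 under quantile normalization and 0.042 under median-of-ratios scaling. Gstp1 ranged from -0.62 to 0.83 and was -0.015 without both livers. Gstt3 ranged from -0.61 to 0.31, Sult1a1 from -0.20 to 0.30, Sult5a1 from -1.28 to 0.64 and Ugt3a1 from -0.80 to 0.047. The cause of these changes was not tested. No alternative called a member higher. Rounding limits genes with low values such as Ces2, Gstm5 and Sult1b1, and 3 livers a group limit all of them.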
